A study of Mus musculus with 24 samples.

Results

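The solute carrier (SLC) genes encode membrane proteins that move sugars, amino acids, vitamins, metals, ions and metabolites across the plasma membrane and the membranes of organelles. The genes described here are the 146 protein-coding genes whose mouse symbol starts with Slc and a digit and whose mean count reached 200 over 24 libraries. They come from 371 such genes in the files, of which 53 had 0 reads in all libraries, 217 in all fell short of the minimum, and 8 were left out by name (Slc2a1, Slc16a1, Slc16a3, Slc7a2, Slc7a11, Slc11a1, Slc40a1 and Slc39a14). The 146 members span 41 of 49 SLC families and took between 1.53% and 1.68% of the reads of a library. The 3 genes just under the minimum were Slc43a3, Slc19a2 and Slc6a12, with mean counts of 184, 189.7 and 192, and the 3 just above it were Slc25a33, Slc25a26 and Slc19a1, with 225, 234 and 264.

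RNA was sequenced from primary macrophages, grown in culture from bone marrow cells, of wild-type C57BL/6 mice (WT) and of mice with a knockout of Ninj1 (KO), a gene for a membrane protein of plasma membrane rupture. Cells of each genotype were left without a stimulus in media or were stimulated with Pam3, in this field the usual short name of a synthetic lipopeptide that activates TLR2. This gave 4 groups of 6 libraries (WT media, KO media, WT Pam3 and KO Pam3). The labels state neither the age of the mice nor whether separate animals or cultures stand behind the libraries of a group. The p-values therefore measure only the spread between these libraries, and this may be technical spread. The sources used here do not give the dose and duration of Pam3, or how the knockout was made.

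SLC proteins work as uniporters, as symporters that draw on a sodium or proton gradient, or as exchangers, and a cell's set of them decides which nutrients it can take up and which stores an organelle can release. Macrophages rely on carriers of the plasma membrane for glucose, amino acids and choline, on carriers of the lysosome to export what they digest, and on the SLC25 family to connect mitochondria with the cytosol. After stimulation through Toll-like receptors macrophages change their metabolism, with more glycolysis, accumulation of succinate and itaconate, and redistribution of iron, zinc and copper.

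Counted reads per library lay between 31302011 and 40663152. Ninj1 itself, the check of the labels, had 289, 308 and 325 CPM (counts scaled to a common library total) in WT media and 151, 167 and 179 in KO media, and 646, 785 and 1145 in WT Pam3 and 409, 420.5 and 479 in KO Pam3, each as lowest, median and highest of 6 libraries. The genotypes did not overlap under either treatment, although reads of the gene remained in KO. Markers of macrophages summed to between 25888.5 and 37974.5 CPM in every library, whereas the erythroid marker Slc4a1 was at 0. WT libraries are labelled male and KO libraries carry no sex, yet Xist was at 233 CPM or more in all 24 libraries and Kdm5d and Eif2s3y of the Y chromosome had 0 reads. Uty and Ddx3y, also of the Y chromosome, had 1 and 27 reads over all 24 libraries together. WT Pam3 replicate 5 stood apart: it was the highest or lowest of its group for 118 of the 146 members, and the median coefficient of variation of the members in that group was 9.16% with it and 4.66% without it. The medians in the other groups were between 3.78% and 4.82%. Results that compare WT Pam3 with KO Pam3, and the interaction, are therefore given with and without that library. CPM are counts scaled to library sizes adjusted by TMM, a trimmed mean of ratios, and compare groups but not genes. A row of 3 CPM values gives the lowest, median and highest of a group's 6 libraries, and an adjusted p is that of edgeR's quasi-likelihood test over all 14435 genes tested.

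The sequences before the start sites of 3 members are shown because these genes moved furthest: Slc13a3 and Slc2a6 had the largest rises and Slc46a3 the largest fall with Pam3. RefSeq promoter windows (GRCm38.p6) were found for 112 of the 146 members, in 151 windows of 300 bases. Each line holds the 250 bases before the RefSeq start, 5′ to 3′ on the gene's strand, which is the minus strand for all 3, at chr2:165473198-165473447, chr2:27027999-27028248 and chr5:147894816-147895065. The GENCODE M21 gene of Slc13a3 begins at chr2:165473230 on the minus strand, so the last bases of its line lie inside that gene. Capitals mark matches, on either strand, to the letters of an NF-kB site (GGG and then CC, with any 5 bases between), an E-box (CACGTG) or a metal response core (TGCGCNC or TGCACNC). Adjoining or overlapping matches run together.
Slc13a3: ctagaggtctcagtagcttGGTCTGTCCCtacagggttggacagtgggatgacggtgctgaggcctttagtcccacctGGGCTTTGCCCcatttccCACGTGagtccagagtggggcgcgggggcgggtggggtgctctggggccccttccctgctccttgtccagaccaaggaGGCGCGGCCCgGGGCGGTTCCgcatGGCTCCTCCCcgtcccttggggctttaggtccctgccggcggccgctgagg
Slc2a6: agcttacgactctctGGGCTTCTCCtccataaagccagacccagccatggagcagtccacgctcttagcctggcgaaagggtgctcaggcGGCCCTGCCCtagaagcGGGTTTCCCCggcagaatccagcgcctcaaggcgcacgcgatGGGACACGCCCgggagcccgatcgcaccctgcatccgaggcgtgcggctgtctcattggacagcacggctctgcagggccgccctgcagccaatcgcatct
Slc46a3: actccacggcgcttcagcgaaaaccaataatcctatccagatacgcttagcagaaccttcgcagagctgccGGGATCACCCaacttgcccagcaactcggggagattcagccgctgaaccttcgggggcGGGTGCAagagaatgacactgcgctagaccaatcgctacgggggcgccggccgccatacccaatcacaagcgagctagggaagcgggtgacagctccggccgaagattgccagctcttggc
NF-kB letters stood in 65.6% of the members' windows and in 50.8% of all 32851 RefSeq windows. They stood in 64.9% of the windows of members that rose at least 2-fold in WT and in 59.4% of those of members that fell at least 2-fold. The E-box stood in 14.6% of member windows against 7.15% of all, and the metal response core in 38.4% against 25.7%. The letters of an AP-1 site (TGANTCA) stood in 5.30% against 7.81%, those of an interferon response element (TTTC 2 times, with any 2 bases between) in 1.99% against 3.44%, and those of an amino acid response element (TGATGNAA) in 2.65% against 3.97%. Such letters are a description of the windows and were not tested as sites.

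Pam3 moved most members, upward and downward in nearly equal numbers. In WT, 64 of the 146 rose and 71 fell at an adjusted p under 0.05, together 92.5%, against 84.8% of all genes tested and 88.8% of the 9040 genes with a mean count of 200 or more. Rises were 40.6% and falls 44.2% of all genes tested. A change of at least 2-fold was called for 62 members, 30 up and 32 down, against 43.3% of all genes tested, 18.2% up and 25.1% down. All 6 Pam3 libraries lay above all 6 media libraries for 52 members and below them for 61, where 68.8% of all genes were separated one way or the other, 32.5% above and 36.4% below. In KO, 67 rose and 69 fell, where 85.0% of all genes tested were called, 40.2% upward and 44.8% downward. At least 2-fold rises and falls numbered 28 and 32 (43.1% of all genes, 17.9% and 25.3% by direction). In KO 62 members were separated above and 66 below (75.7% of all genes, 36.0% and 39.7%). The WT counts of separation include WT Pam3 replicate 5, the highest or lowest of its group for 118 members. Separation was not counted without it, so the WT and KO counts are not a comparison of genotypes. The median log2 change of the members was -0.09 in WT and -0.06 in KO, beside -0.05 and -0.07 over all genes tested.

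Both genotypes gave nearly one list. Of the members, 62 rose in WT and in KO, 67 fell in both, 4 passed the test in neither, and none rose in one and fell in the other. The KO and WT responses differed by a median of 0.08 on the log2 scale and by 0.43 at most, and by over 0.2 for 12 members. A total of 15 members passed the count minimum through 1 treatment only. Through Pam3 there were 4 (Slc13a3, Slc25a33, Slc35g1 and Slc7a5). Through media there were 11 (Slc46a3, Slc46a1, Slc19a1, Slc26a11, Slc2a3, Slc2a8, Slc37a1, Slc5a3, Slc25a23, Slc25a26 and Slc35a1). The difference of these 15 was in part set by that rule, so counts over members are a description. With scaling to library size alone the median of all genes moved by -0.52 in WT and -0.48 in KO, and 38 members rose and 101 fell in WT and 42 and 99 in KO. Under that scaling rises made up 27.3% of the called members in WT in place of 47.4%, and 29.8% in KO in place of 49.3%. Over all genes tested the same shares were 28.4% in place of 47.9% in WT, and 29.2% in place of 47.3% in KO. In these bulk libraries fewer cells of a type and less RNA per cell cannot be told apart.

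**Figure D1:**
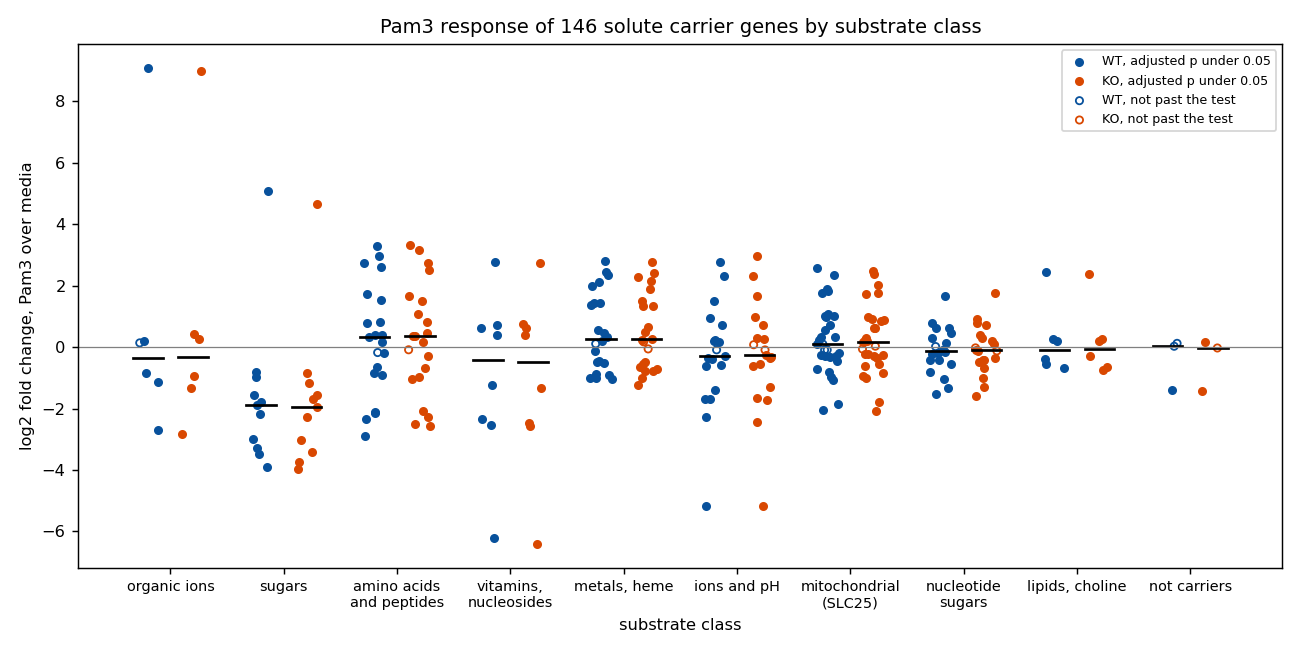
Log2 fold change of Pam3 over media (vertical axis) for the 146 members, by substrate class, in WT (blue) and KO (orange). Filled points passed the test, open points did not, and the black bar is the median of the class. Slc13a3 stands alone at the top, at 9.10 in WT and 9.005 in KO, and 10 of the 11 sugar carriers lie below 0.

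Carriers of organic ions held the largest rise of all. Slc13a3 (minus strand, chr2:165405028-165473230), a sodium-coupled carrier of succinate and other dicarboxylates, was near the floor in media and among the most abundant members after Pam3. It had 1.36, 1.58 and 1.95 CPM in WT media and 819, 877 and 969 in WT Pam3, and 1.25, 1.72 and 2.15 in KO media and 764, 909 and 993 in KO Pam3. No Pam3 library came near a media library, and the log2 change was 9.10 ± 0.10 in WT and 9.005 ± 0.10 in KO (SE, adjusted p = 4.06e-31 and 4.36e-31). By the deposited RPKM, which correct for gene length, it went from 0.409, the lowest of all 146 members, to 229 in WT. Slc13a3 passed the count minimum through Pam3 only, so its rise was in part set by that rule. The monocarboxylate carrier Slc16a7 fell from 68.3, 73.96 and 77.1 CPM to 8.50, 11.6 and 12.9 in WT and from 65.3, 69.9 and 72.3 to 7.99, 9.91 and 11.2 in KO, with a log2 change of -2.70 ± 0.08 in WT and -2.82 ± 0.08 in KO (adjusted p = 4.55e-22 and 1.96e-22). Its relative Slc16a13 fell by 1.15 in WT and by 1.32 in KO on the log2 scale. The creatine carrier Slc6a8 fell from 215, 224 and 243 CPM to 113, 127 and 132 in WT and from 190.1, 202 and 206 to 95.6, 106 and 111 in KO (log2 change -0.85 ± 0.04 in WT and -0.93 ± 0.04 in KO). Slc22a5, the carnitine carrier, rose by only 0.21 and 0.26. Slc16a6 had a log2 change of 0.14 in WT, which did not pass the test (adjusted p = 0.0769), and of 0.44 in KO, which did. It shares 21.5% of its exon bases with Amz2 on the other strand, and unstranded reads in that part cannot be told from those of that gene. Of the 6 members 2 rose and 3 fell in WT, and the rises of Slc22a5 in both genotypes and of Slc16a6 in KO lay below 0 with scaling to library size alone. Their summed level rose from between 364 and 391 CPM in WT media to between 1017 and 1191 after Pam3. Without Slc13a3 the sum went the other way, from between 363 and 390.0 to between 195 and 222 CPM.

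**Figure D2:**
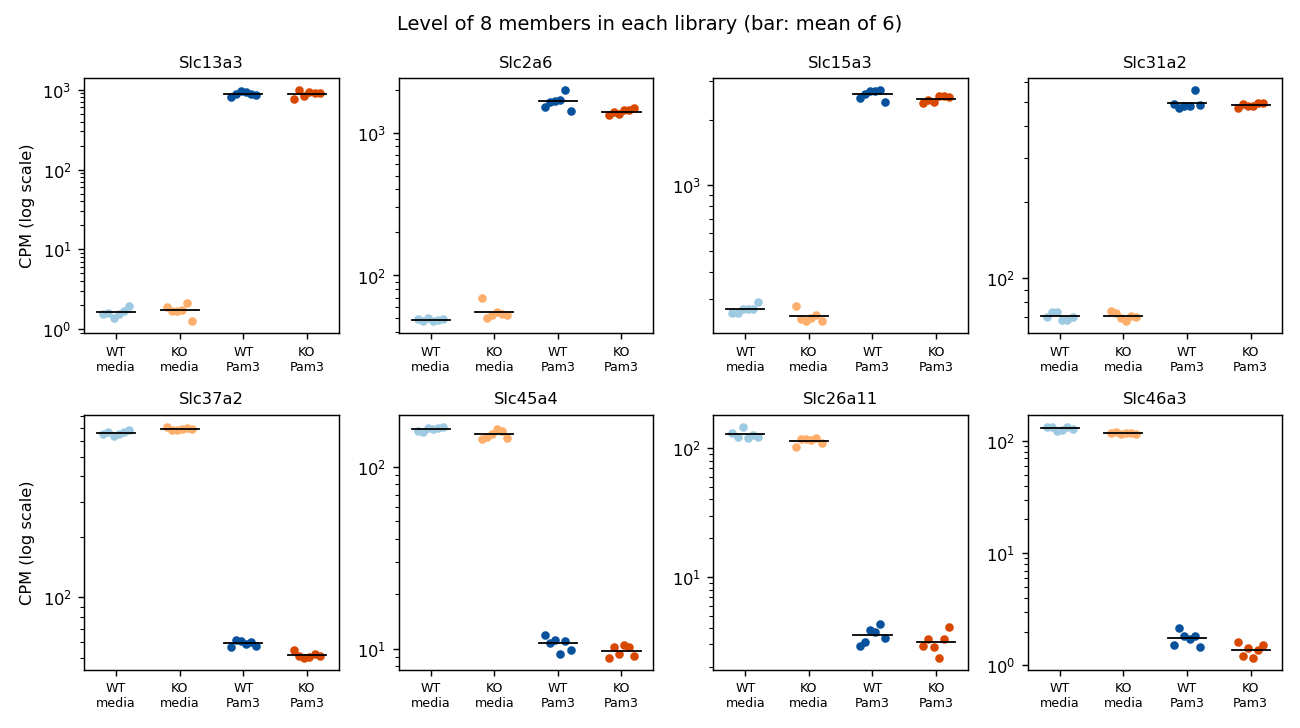
CPM on a log axis in each of the 24 libraries for 4 members that rose with Pam3 (Slc13a3, Slc2a6, Slc15a3 and Slc31a2) and 4 that fell (Slc37a2, Slc45a4, Slc26a11 and Slc46a3). Points are libraries and bars are means of 6. For each of the 8 genes all 12 Pam3 libraries lie on one side of all 12 media libraries.

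Sugar carriers split into 1 that rose and 10 that fell, in both genotypes, and this count was the same with scaling to library size alone. Slc2a6 (GLUT6; minus strand, chr2:27021363-27027998), a glucose carrier of intracellular membranes, was the exception. It went from 47.6, 48.8 and 50.4 CPM to 1424, 1664 and 1989 in WT and from 50.8, 53.4 and 69.5 to 1323, 1418 and 1477 in KO. The groups lay far apart, at a log2 change of 5.09 ± 0.08 in WT and 4.65 ± 0.08 in KO (adjusted p = 5.85e-28 and 2.57e-27). Among the falling members Slc37a2 (minus strand, chr9:37227585-37255738), of the family of glucose-6-phosphate carriers of the endoplasmic reticulum, was the most abundant. It fell from 639, 657 and 684 CPM to 56.6, 59.4 and 61.3 in WT and from 677, 688 and 707 to 49.9, 51.2 and 54.99 in KO (log2 change -3.48 ± 0.03 in WT and -3.74 ± 0.03 in KO, adjusted p = 9.79e-32 and 4.94e-32). Slc45a4, of a family of proton-coupled sugar carriers, fell from 156, 162 and 166 CPM to 9.40, 10.9 and 11.9 in WT and from 141, 149 and 162 to 8.86, 9.76 and 10.5 in KO, a log2 change of -3.92 ± 0.05 in WT and -3.95 ± 0.05 in KO (adjusted p = 6.00e-29 and 4.76e-29). The glucose carrier Slc2a8 (GLUT8) fell from 29.9, 32.5 and 33.3 CPM to 2.71, 3.27 and 3.83 in WT and from 29.3, 32.97 and 33.8 to 2.44, 2.95 and 3.80 in KO (-3.27 ± 0.08 in WT and -3.43 ± 0.08 in KO, adjusted p = 7.27e-24 and 2.72e-24), and Slc2a3 (GLUT3) changed by -1.88 and -1.94. The urate carrier Slc2a9 changed by -2.17 and -2.27, and Slc5a3, which takes up myo-inositol, by -1.79 and -1.69. All 4 members of the Slc37 family fell, Slc37a1 by the most after Slc37a2 (log2 change -2.995 in WT), Slc37a3 by 1.57 and the glucose-6-phosphate carrier Slc37a4 by 0.80 in WT. Slc50a1 fell by 0.97 in WT and by 1.16 in KO. Slc2a3, Slc2a8, Slc37a1 and Slc5a3 passed the count minimum through media only, so their falls, and the count of 10, were in part set by that rule. After Pam3 a median of 93.1% of the summed CPM of the sugar carriers in WT came from Slc2a6 alone, against 4.60% in media. This is a share of reads, since CPM do not correct for gene length. It covers members only: the glucose carrier Slc2a1, left out by name, also rose with Pam3 and is not in the sum. The other 10 together fell from between 986 and 1029.7 CPM in WT media to between 119 and 129, and from between 1004 and 1029.6 to between 109 and 113 in KO.

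Among 21 carriers of amino acids and peptides 12 rose and 8 fell in each genotype, and the rises included carriers of cationic, large neutral and aromatic amino acids at the cell surface. Slc15a3 (plus strand, chr19:10839727-10859362), a proton-coupled carrier of histidine and small peptides in endosomes and lysosomes, was the most abundant member of all after Pam3. It had 258, 269 and 289 CPM in WT media and 2418, 2658 and 2736 in WT Pam3, and 236, 245 and 279 and 2372, 2499 and 2574 in KO. The groups did not overlap, and the log2 change was 3.28 ± 0.05 in WT and 3.32 ± 0.05 in KO (adjusted p = 6.41e-29 and 4.81e-29). Per length, its deposited RPKM went from 102 to 1013 in WT. Tmem132a on the other strand covers 28.1% of its exon bases but had a mean of 477 counts, against 44192 for Slc15a3. Its relative Slc15a4, with a similar role, moved little and in the other direction (-0.18 in WT and -0.29 in KO).

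Slc7a1, which takes up arginine and lysine, rose from 6.95, 7.55 and 8.03 CPM to 37.3, 61.7 and 63.7 in WT and from 6.69, 6.92 and 8.40 to 55.8, 65.5 and 67.9 in KO (log2 change 2.95 ± 0.10 in WT and 3.15 ± 0.10 in KO, adjusted p = 1.30e-20 and 3.29e-21). The lowest of its WT Pam3 values, 37.3 CPM, was that of replicate 5. The aromatic amino acid carrier Slc16a10 went from 112, 116 and 121 CPM to 638, 804 and 822 in WT and from 114, 119 and 122 to 753, 795 and 819.8 in KO, a log2 change of 2.75 ± 0.05 in WT and 2.73 ± 0.05 in KO (adjusted p = 1.20e-26 and 1.35e-26). Light chains that pair with the shared heavy chain Slc3a2 rose with it. These were Slc7a5 (LAT1), which changed by 2.60 and 2.51 in WT and KO, Slc7a8 (LAT2), by 1.74 and 1.66, Slc7a7, by 1.54 and 1.52, and Slc7a6, by 0.79 and 1.09. Slc3a2 changed by 0.83 and 0.81. Slc7a5 passed the count minimum through Pam3 only, so its rise was in part set by that rule. Neutral amino acid carriers of the Slc38 family rose by less, from 0.16 for Slc38a1 to 0.40 for Slc38a6 in WT, and these 4 (with Slc38a2 and Slc38a7) lay below 0 with scaling to library size alone. Under that scaling 8 members of the class rose and 13 fell in WT, and 8 and 12 in KO, so that falls outnumbered rises.

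The members of this class that fell at least 2-fold in WT were Slc36a1, Slc43a2, Slc17a5 and Slc38a9, of which Slc36a1, Slc17a5 and Slc38a9 act in the lysosomal membrane. Slc36a1 (plus strand, chr11:55204350-55236330), a proton-coupled exporter of small amino acids, went from 125, 136 and 145 CPM to 15.01, 18.7 and 19.6 in WT and from 119.7, 129 and 133 to 20.4, 22.7 and 23.99 in KO. Its log2 change was -2.90 ± 0.06 in WT and -2.51 ± 0.05 in KO (adjusted p = 5.58e-26 and 8.70e-25). Slc43a2 (LAT4), a carrier of branched-chain amino acids and the second most abundant member by RPKM in media, went from 1158, 1194 and 1237 CPM to 209.9, 240.1 and 260.0 in WT and from 1087, 1156 and 1196 to 180.5, 193 and 206 in KO (-2.34 ± 0.05 in WT and -2.57 ± 0.05 in KO, adjusted p = 1.87e-25 and 3.05e-26). Slc17a5 (sialin), which exports sialic acid, fell from 121, 124 and 126 CPM to 23.9, 28.9 and 29.7 in WT and from 118, 121 and 124 to 24.6, 25.2 and 26.4 in KO (-2.13 ± 0.04 in WT and -2.26 ± 0.04 in KO, adjusted p = 5.17e-26 and 1.57e-26). Slc38a9, an arginine sensor for mTORC1, changed by -2.12 and -2.08. Slc6a6, the taurine carrier, had the highest RPKM of all members in media. It fell from 2554, 2684 and 2813 CPM to 1032, 1508 and 1587 in WT and from 2451, 2499 and 2604 to 1183, 1229.7 and 1256 in KO (log2 change -0.90 ± 0.07 in WT and -1.03 ± 0.07 in KO, adjusted p = 6.14e-13 and 3.49e-14). The glutamine carrier Slc1a5 changed by -0.85 and -0.97 and Slc38a10 by -0.66 and -0.69, whereas Slc36a4 passed the test in neither genotype (-0.18 and -0.09).

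Of the 8 carriers of vitamins and nucleosides 4 rose and 4 fell in both genotypes. Slc46a3 (minus strand, chr5:147878437-147894815), a lysosomal relative of the folate carrier, had the largest fall of all members. It went from 122, 132 and 134 CPM to 1.44, 1.77 and 2.15 in WT and from 115, 118 and 119.5 to 1.16, 1.40 and 1.60 in KO, with no overlap and a log2 change of -6.22 ± 0.06 in WT and -6.40 ± 0.07 in KO (adjusted p = 2.22e-31 and 2.28e-31). Both folate carriers fell too, the proton-coupled Slc46a1 from 11.00, 11.7 and 12.4 CPM to 1.94, 2.33 and 2.78 in WT and from 11.4, 12.1 and 12.5 to 1.51, 2.14 and 2.74 in KO (-2.36 ± 0.09 in WT and -2.47 ± 0.09 in KO, adjusted p = 3.20e-19 and 9.55e-20) and the reduced folate carrier Slc19a1 by 1.22 in WT and 1.34 in KO. The lysosomal nucleoside carrier Slc29a3 fell from 136, 137 and 141 CPM to 16.2, 24.9 and 26.2 in WT and from 135, 145 and 152 to 22.6, 24.4 and 26.3 in KO (-2.54 ± 0.07 in WT and -2.56 ± 0.07 in KO, adjusted p = 9.64e-22 and 7.57e-22). Its relative at the cell surface, Slc29a1, rose by 0.40 in both genotypes. The sodium-coupled purine nucleoside carrier Slc28a2 rose from 17.5, 19.96 and 21.6 CPM to 111, 136 and 147 in WT and from 20.7, 22.3 and 26.00 to 142, 147 and 171 in KO (2.76 ± 0.07 in WT and 2.74 ± 0.07 in KO, adjusted p = 1.90e-23 and 2.05e-23). The ascorbate carrier Slc23a2 stood at 251, 261 and 272 CPM in WT media and 255, 456 and 486 in WT Pam3, and at 238, 252 and 268 and 400.2, 426 and 437 in KO (0.71 ± 0.09 in WT and 0.74 ± 0.09 in KO). One WT Pam3 library, replicate 5 at 255 CPM, overlapped the media group, while all 6 KO Pam3 libraries were above KO media. The riboflavin carrier Slc52a2 rose by 0.61 in WT and 0.62 in KO. With scaling to library size alone 1 of the 4 rises passed the test in WT and 3 in KO, and that of Slc29a1 lay below 0. Slc46a3, Slc46a1 and Slc19a1 passed the count minimum through media only, so their falls were in part set by that rule.

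Carriers of metals and heme rose more often than they fell (12 against 9 of 22 in WT and 12 against 8 in KO), and with scaling to library size alone the order was the reverse (8 against 12 and 9 against 12). Both copper carriers rose. Slc31a2 went from 68.2, 70.1 and 73.6 CPM to 471, 483 and 557 in WT and from 67.2, 70.3 and 74.1 to 472, 486 and 496 in KO (2.81 ± 0.04 in WT and 2.78 ± 0.04 in KO, adjusted p = 9.85e-29 and 1.14e-28). Slc31a1, the high-affinity copper importer, went from 125, 131 and 142 CPM to 652, 731 and 777 in WT and from 129.7, 131 and 138 to 674, 709 and 747 in KO (2.44 ± 0.04 in WT and 2.42 ± 0.04 in KO, adjusted p = 1.03e-26 and 1.20e-26). The 2 genes are neighbours on chromosome 4, 62316 bases apart. The iron importer Slc11a2 (DMT1) rose by 2.13 in WT and 2.15 in KO, and the heme carrier Slc48a1 by 0.32 and 0.26, the latter turning below 0 with scaling to library size alone.

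Zinc carriers moved both ways within both families. Of the importer family Slc39, Slc39a13 rose from 20.6, 21.8 and 23.4 CPM to 101, 109.8 and 128 in WT and from 21.5, 24.05 and 24.4 to 103, 116 and 123 in KO (2.34 ± 0.05 in WT and 2.29 ± 0.05 in KO, adjusted p = 4.50e-24 and 7.00e-24) and Slc39a1 by 1.43 and 1.35. Slc39a8, Slc39a10, Slc39a3 and Slc39a11 changed by -1.03, -0.90, -0.49 and -0.53 in WT. Slc39a7 had a log2 change of 1.44, but 80.7% of its exon bases lie in the read-through transcript Gm20427, so its count is uncertain. Of the family Slc30, which moves zinc out of the cytosol, Slc30a6 of the Golgi rose by 1.99 in WT and 1.90 in KO. Slc30a1, the zinc exporter of the plasma membrane, fell from 74.6, 75.97 and 81.6 CPM to 31.8, 38.8 and 45.4 in WT and from 72.5, 76.3 and 84.4 to 32.1, 32.8 and 34.3 in KO (-1.0 ± 0.06 in WT and -1.22 ± 0.06 in KO, adjusted p = 1.63e-15 and 1.96e-17). Slc30a9 and Slc30a7 rose by 0.57 and 0.47 in WT, that of Slc30a7 lying below 0 with scaling to library size alone, Slc30a5 fell by 0.45, and Slc30a4 passed the test in neither genotype. In the magnesium carrier family Slc41a2 rose (1.36 and 1.35) while Slc41a1 (-0.997 and -0.70, from 16.2, 17.6 and 17.9 CPM in WT media and 15.9, 16.9 and 17.6 in KO media) and Slc41a3 (-0.88 and -0.79) fell. Together the 22 members rose from between 1398 and 1432 CPM in WT media to between 3048 and 3175, and the sum without Slc31a1 still rose, from between 1270.4 and 1299 to between 2317 and 2432.

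Of 19 carriers of inorganic ions and protons 8 rose and 10 fell in WT, and 7 and 10 in KO. The sodium bicarbonate cotransporter Slc4a7, an importer of base, rose from 30.8, 31.5 and 33.4 CPM to 95.9, 243 and 259 in WT and from 27.1, 28.8 and 33.8 to 204, 237 and 244 in KO (2.79 ± 0.15 in WT and 2.96 ± 0.15 in KO, adjusted p = 5.42e-16 and 1.63e-16). Its lowest WT Pam3 value came from replicate 5, and still lay above every media library. The potassium chloride cotransporter Slc12a4 rose from 49.2, 51.5 and 55.2 CPM to 241, 259 and 267 in WT and from 50.8, 53.2 and 55.1 to 251, 264 and 277 in KO (2.31 ± 0.04 in WT and 2.31 ± 0.04 in KO, adjusted p = 1.53e-27 and 1.54e-27), and the phosphate importer Slc20a1 from 52.1, 53.5 and 58.4 to 146, 154 and 159 in WT and from 46.9, 48.2 and 51.1 to 151, 155 and 159 in KO (1.51 ± 0.03 in WT and 1.67 ± 0.03 in KO, adjusted p = 3.26e-24 and 3.57e-25). The anion exchanger Slc4a2 and the Golgi proton exchanger Slc9a8 rose by 0.96 and 0.72 in WT. Slc26a11, a sulfate carrier, had the second largest fall of all members, from 120.2, 124 and 147 CPM to 2.93, 3.54 and 4.34 in WT and from 102, 116 and 121 to 2.34, 3.12 and 4.13 in KO (-5.17 ± 0.09 in WT and -5.18 ± 0.09 in KO, adjusted p = 1.41e-26 and 1.51e-26). Among sodium proton exchangers of endosomes and Golgi Slc9a9 fell furthest and went from 224, 243 and 249.8 CPM to 45.4, 50.2 and 52.99 in WT and from 216, 223 and 226 to 39.4, 40.5 and 42.4 in KO (-2.27 ± 0.04 in WT and -2.45 ± 0.04 in KO, adjusted p = 2.91e-27 and 6.96e-28). Slc9a7, another of these exchangers, changed by -1.68 in WT. Slc12a9 went from 56.2, 57.8 and 62.01 CPM to 16.5, 17.7 and 21.3 in WT and from 55.7, 58.4 and 67.8 to 15.6, 19.01 and 19.8 in KO (-1.69 ± 0.06 in WT and -1.71 ± 0.06 in KO, adjusted p = 3.08e-19 and 2.00e-19). Calcium exchangers fell, Slc8a1 of the plasma membrane by 1.39 and Slc8b1 of mitochondria by 0.60 in WT. Slc8b1, the most abundant member of the class by RPKM, stood at 181, 186 and 201 CPM in WT media and 115, 123 and 132 in WT Pam3, and at 173, 179 and 183 and 115, 116 and 125 in KO. The sodium potassium chloride cotransporter Slc12a2 passed the test in neither genotype (-0.09 in both). The small rises of Slc12a7 and Slc26a2 (0.21 and 0.22 in WT) lay below 0 with scaling to library size alone. Slc26a11 passed the count minimum through media only, so its fall was in part set by that rule.

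The 30 mitochondrial carriers of the SLC25 family gave 15 rises and 12 falls in WT, 16 and 12 in KO, with log2 changes in WT between -2.05 and 2.57. Slc25a22, which brings glutamate into mitochondria, rose from 23.2, 25.04 and 29.6 CPM to 139, 151 and 165 in WT and from 25.8, 26.8 and 42.6 to 135, 154 and 164 in KO (2.57 ± 0.10 in WT and 2.37 ± 0.09 in KO, adjusted p = 1.78e-19 and 9.31e-19). The pyrimidine nucleotide carrier Slc25a33 rose from 2.01, 2.25 and 2.42 CPM to 10.4, 11.2 and 13.4 in WT and from 1.84, 2.17 and 2.65 to 10.6, 12.3 and 13.1 in KO (2.35 ± 0.08 in WT and 2.47 ± 0.08 in KO, adjusted p = 3.26e-20 and 1.08e-20). Slc25a37 (mitoferrin-1), an iron importer, rose from 34.6, 38.2 and 41.01 CPM to 131, 138 and 154 in WT and from 32.96, 38.4 and 39.2 to 139, 149 and 158 in KO (1.89 ± 0.06 in WT and 2.01 ± 0.06 in KO, adjusted p = 2.08e-21 and 5.36e-22), and its relative Slc25a28 (mitoferrin-2) by 0.72 and 0.63. The carriers of dicarboxylates, Slc25a10, and of citrate, Slc25a1, rose by 1.82 and 1.01 in WT and by 1.75 and 0.85 in KO. The oxoglutarate carrier Slc25a11 changed by 0.12 in WT (adjusted p = 0.0373) and by 0.03 in KO (adjusted p = 0.576).

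Of the aspartate glutamate carriers Slc25a12 rose (1.08 in WT and 0.995 in KO), while Slc25a13 fell from 33.9, 36.8 and 38.2 CPM to 8.28, 10.1 and 11.1 in WT and from 29.9, 32.7 and 36.5 to 8.57, 9.54 and 9.99 in KO (-1.87 ± 0.06 in WT and -1.79 ± 0.06 in KO, adjusted p = 4.57e-21 and 1.10e-20). Of the ATP-Mg/phosphate carriers Slc25a25 rose (1.75 and 1.73), Slc25a23 fell from 14.8, 15.7 and 16.8 CPM to 3.58, 3.77 and 4.11 in WT and from 13.7, 15.5 and 16.4 to 3.18, 3.65 and 4.11 in KO (-2.05 ± 0.06 in WT and -2.07 ± 0.06 in KO, adjusted p = 1.16e-21 and 9.35e-22), and Slc25a24 changed by -0.20 and -0.06, past the test in WT alone. The ADP/ATP carriers Slc25a4 and Slc25a5 rose by 0.25 and 1.005 in WT, with counts reported as uncertain, since the deposited counts hold uniquely aligned reads only and any loss to near-identical copies was not measured, and the rise of Slc25a4 lay below 0 with scaling to library size alone. The phosphate carrier Slc25a3, the most abundant member of the class by RPKM, stood at 212, 223 and 226 CPM in WT media and 253, 266 and 362 in WT Pam3, and at 215, 220.2 and 229 and 254, 259.8 and 272 in KO. Its log2 change was 0.34 ± 0.06 in WT and 0.24 ± 0.06 in KO, and -0.18 and -0.25 with scaling to library size alone. The falls included Slc25a16, Slc25a30, Slc25a45 and Slc25a36, at -1.08, -0.99, -0.83 and -0.71 in WT, the carnitine acylcarnitine carrier Slc25a20 at -0.46 and the NAD carrier Slc25a51 at -0.32. With scaling to library size alone 10 members of the family rose and 19 fell in each genotype. Slc25a33 passed the count minimum through Pam3 only, and Slc25a23 and Slc25a26 through media only. Their changes were in part set by that rule.

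Of 20 carriers of nucleotide sugars and other substrates of the Golgi and endoplasmic reticulum (the family Slc35, and Slc33a1, which imports acetyl-CoA) 7 rose and 11 fell in WT, and 8 and 10 in KO. Only 4 changed at least 2-fold in WT. Slc35g1 went from 3.76, 4.15 and 5.04 CPM to 11.5, 13.7 and 14.7 in WT and from 3.14, 3.70 and 4.52 to 11.96, 12.8 and 13.6 in KO (1.68 ± 0.08 in WT and 1.78 ± 0.08 in KO, adjusted p = 2.95e-17 and 1.07e-17). The CMP-sialic acid carrier Slc35a1 changed by -1.33 in WT and -1.29 in KO, Slc35c2 by -1.53 and -1.59, and Slc35e2 by -1.04 and -0.998. Smaller rises were those of Slc35b1, which carries ATP into the endoplasmic reticulum (0.77 in WT), of Slc35a3, which carries UDP-N-acetylglucosamine (0.64), and of Slc35d1, which carries UDP-glucuronic acid (0.63). Slc35f6, the most abundant member of the class by RPKM, stood at 231, 238 and 252 CPM in WT media and 171, 179 and 187 in WT Pam3, and at 218, 226 and 232 and 163, 166 and 175 in KO (-0.42 ± 0.03 in WT and -0.42 ± 0.03 in KO). The UDP-galactose carrier Slc35a2 and the GDP-fucose carrier Slc35c1 changed by -0.15 and 0.02 in WT. Slc33a1 fell by 0.53, and shares 32.0% of its exon bases with an antisense gene that had almost no counts. The class as a whole went from between 1049 and 1088 CPM in WT media to between 941 and 998 after Pam3. With scaling to library size alone 3 rose and 15 fell in WT, and 4 and 16 in KO. Slc35g1 passed the count minimum through Pam3 only and Slc35a1 through media only, so their changes were in part set by that rule.

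Among 6 carriers of lipids, bile acids and choline 3 rose and 3 fell in both genotypes, and only the choline carrier Slc44a1 changed at least 2-fold. It had 85.2, 88.99 and 94.5 CPM in WT media and 382, 508 and 536 in WT Pam3, and 90.04, 92.4 and 97.9 and 468, 490.4 and 511 in KO, without overlap (2.46 ± 0.06 in WT and 2.39 ± 0.06 in KO, adjusted p = 4.24e-24 and 7.99e-24). Its relative Slc44a2 fell (-0.56 and -0.63). The fatty acid carrier Slc27a1 fell from 266, 286 and 329 CPM to 161, 189 and 199 in WT and from 269.7, 285 and 292 to 147, 169 and 187 in KO (-0.67 ± 0.06 in WT and -0.76 ± 0.06 in KO, adjusted p = 2.57e-11 and 1.71e-12), while Slc27a4 rose by 0.20 and 0.27. Slc10a3 and Slc10a7, orphan relatives of bile acid carriers, changed by 0.26 and -0.38 in WT. The rises of Slc27a4 and Slc10a3 lay below 0 with scaling to library size alone. The symbols of 3 members name partners of carriers and not carriers. Of these the scaffold protein Slc9a3r1 (NHERF1) fell from 189.9, 204 and 209 CPM to 70.5, 75.7 and 92.1 in WT and from 173, 196 and 205 to 66.8, 74.2 and 76.96 in KO (-1.39 ± 0.06 in WT and -1.42 ± 0.06 in KO, adjusted p = 1.61e-18 and 9.86e-19). Slc4a1ap passed the test in neither genotype, and Slc7a6os passed it in KO (0.16) but not in WT (0.12).

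**Figure D3:**
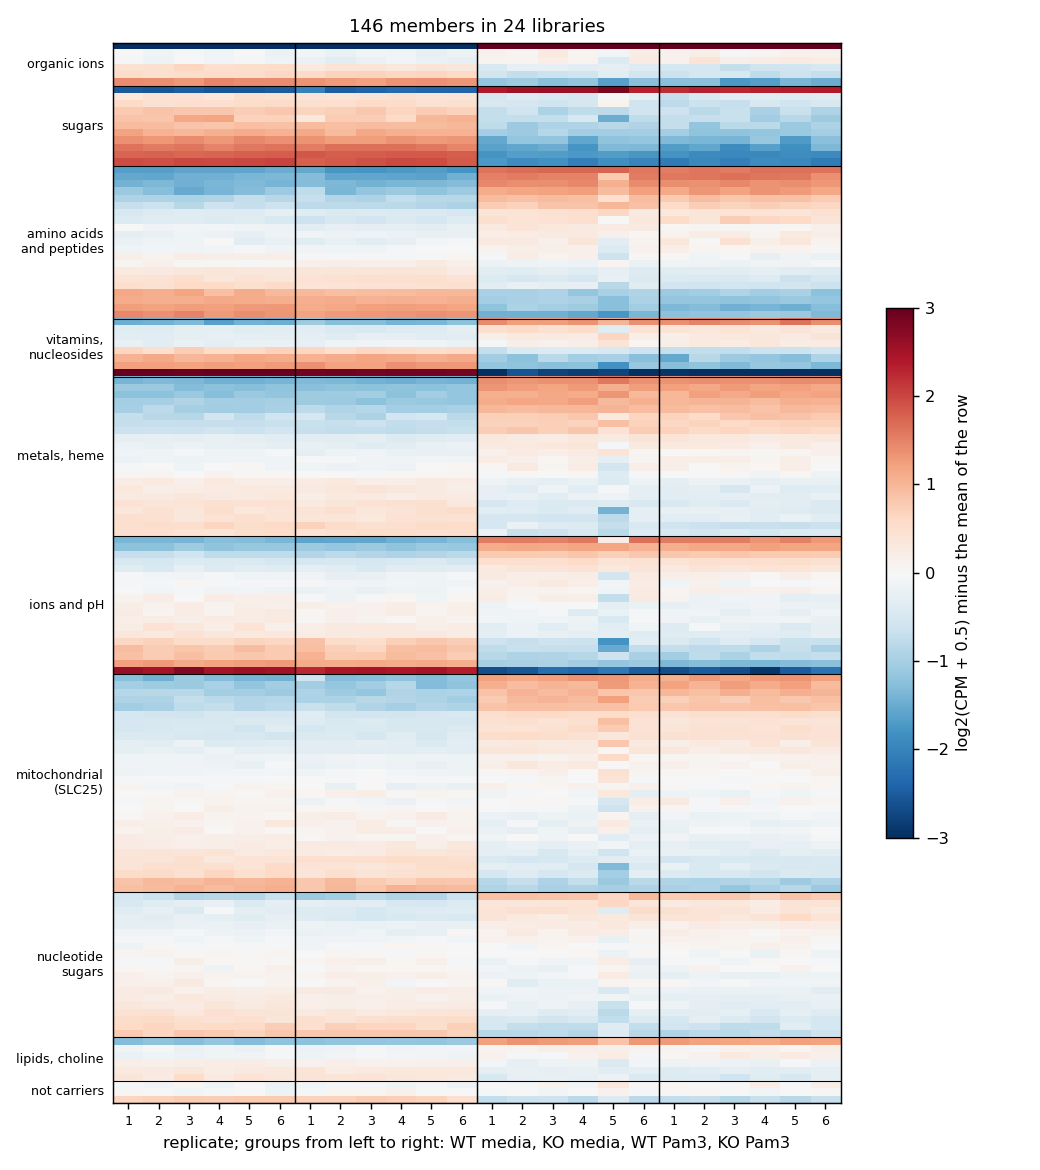
Level of the 146 members in the 24 libraries, as log2(CPM + 0.5) minus the mean of the row, by substrate class and, within a class, by the WT log2 change. Red is above and blue below the mean of the gene, clipped at 3. The test was passed in 135 rows in WT and 136 in KO, and the column of WT Pam3 replicate 5 departs from its group in 118 rows as highest or lowest.

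**Figure D4:**
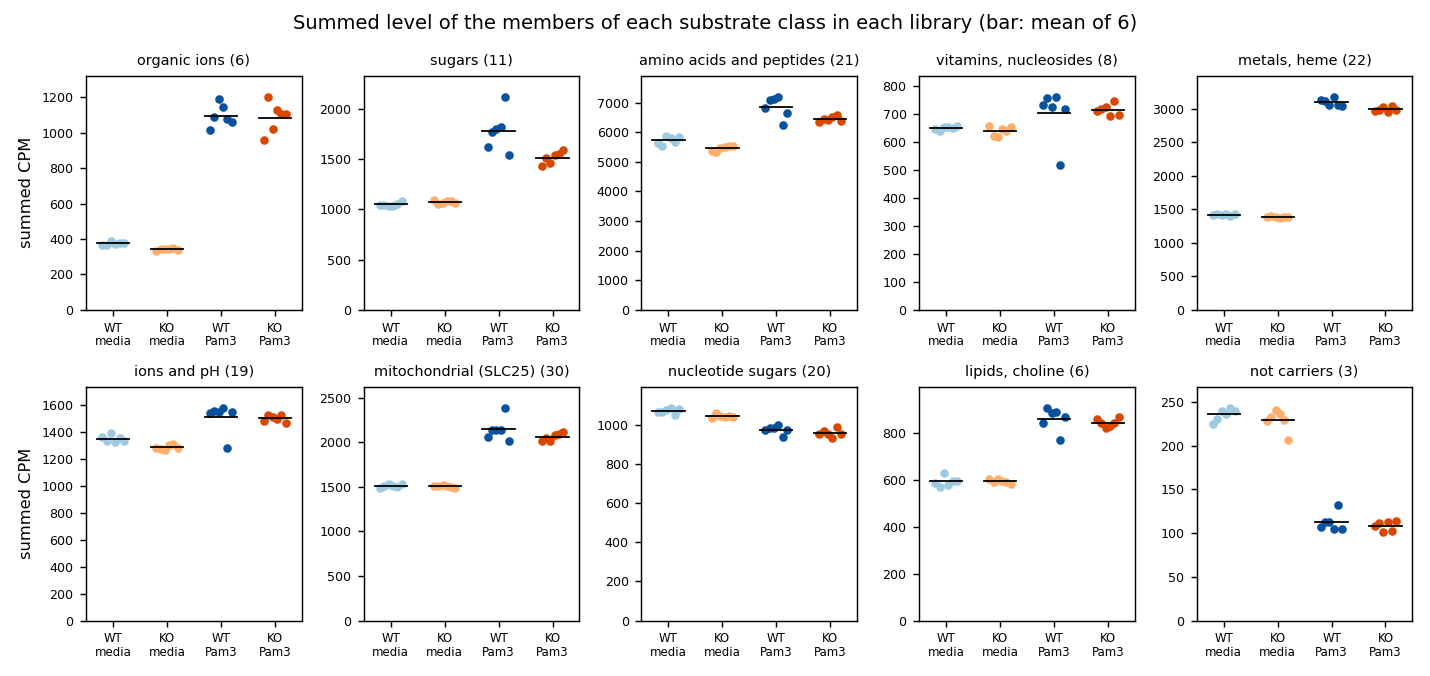
Summed CPM of the members of each substrate class in each library, on linear axes from 0, with the number of members in parentheses and bars at the mean of 6. Sums of metal carriers after Pam3 lie between 2946 and 3175 CPM, above the media libraries at 1369 to 1432 CPM, and those of nucleotide sugar carriers lie below their media libraries.

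The order of the levels changed with Pam3. By deposited RPKM in WT media, Slc6a6 came first (387), followed by Slc43a2 (148), Slc15a3 (102), Slc25a3 (101), Slc48a1 (98.3) and Slc37a2 (97.8). In WT Pam3 the first was Slc15a3 (1013), then Slc2a6 (704), Slc13a3 (229), Slc31a2 (221) and Slc6a6 (211). Slc37a2 went from place 6 to place 83 of 146, and Slc13a3 came up from place 146. In media Slc15a3, Slc25a3, Slc48a1 and Slc37a2 lay within 1 SD of a neighbour and their order is not resolved (SD between 2.35 and 4.79, n = 6). In WT Pam3 the same holds for Slc13a3, Slc31a2 and Slc6a6 (SD between 13.3 and 30.9).

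Differences between genotypes were small. On the log2 scale they lay between -0.21 and 0.21 in media and between -0.33 and 0.31 after Pam3. In media 4 of 146 members were lower in KO and none higher (2.74%, against 3.03% of all genes tested, 1.92% higher and 1.12% lower, and 3.66% of those with a mean count of 200 or more). They were Slc38a6, a neutral amino acid carrier (log2 difference -0.19 ± 0.04, adjusted p = 0.00322), the phosphate importer Slc20a1 (-0.15 ± 0.03, 0.0161), the creatine carrier Slc6a8 (-0.17 ± 0.04, 0.0323) and Slc35d1 (-0.17 ± 0.05, 0.0474). Slc35d1 had 9.82, 10.4 and 10.97 CPM in WT media and 8.66, 9.26 and 9.74 in KO media, and 15.1, 16.1 and 16.9 in WT Pam3 and 16.1, 16.99 and 19.6 in KO Pam3. Slc38a6 had 40.1, 42.9 and 45.9 CPM in WT media and 35.7, 37.3 and 39.3 in KO media, with no overlap. It passed the test whichever of the 24 libraries was left out, Slc20a1 in 22 of 24 such fits, Slc6a8 in 17 and Slc35d1 in 7. The count of lower members rested on single libraries: it was 1 without KO media replicate 4 or WT media replicate 3, 2 without KO media replicate 6 or WT media replicate 4 or 6, and 19 without WT Pam3 replicate 5, which enters through the shared estimate of spread. Without that library 4 members were higher and 19 lower (15.8%, against 8.75% of all genes tested), the 4 calls above among them. DESeq2 on the full set gave 1 higher, and a fit of these 2 groups alone gave 4 higher and 19 lower, 21 of them shared with the calls without WT Pam3 replicate 5. Those with a difference beyond 0.15 in size were Slc36a4 (-0.21), Slc12a2 (-0.21), Slc25a32 (-0.17), Slc26a11 (-0.17), Slc25a13 (-0.16), Slc7a7 (-0.15), Slc2a6 (0.20) and Slc28a2 (0.19), beside Slc38a6, Slc6a8 and Slc35d1 named before. The difference of Slc2a6 in media was 0.12 without KO media replicate 1, which stood at 69.5 CPM. Over all genes tested 7.97% were called in the fit of these 2 groups alone.

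After Pam3, 2 members were higher in KO and 12 lower (9.59%, against 4.06% of all genes tested and 5.48% of those with a mean count of 200 or more). Over all genes tested 1.31% were higher and 2.75% lower. A core of 7 passed the test whichever library was left out, and 6 of them, all but Slc41a1, also in the fit of these 2 groups alone. Slc9a9, the endosomal proton exchanger, had 45.4, 50.2 and 52.99 CPM in WT Pam3 and 39.4, 40.5 and 42.4 in KO Pam3, without overlap (-0.28 ± 0.04, adjusted p = 3.12e-05). Slc38a6 had 53.98, 55.4 and 60.7 CPM in WT Pam3 and 46.4, 47.6 and 50.5 in KO Pam3, also without overlap (-0.24 ± 0.04, 0.000259). Slc43a2 had 209.9, 240.1 and 260.0 and 180.5, 193 and 206 CPM (-0.29 ± 0.05, 0.000282). Slc37a2 had 56.6, 59.4 and 61.3 and 49.9, 51.2 and 54.99 CPM (-0.19 ± 0.03, 0.000452). Slc6a8 had 113, 127 and 132 and 95.6, 106 and 111 CPM (-0.25 ± 0.04, 0.000967). Slc36a1, the lysosomal amino acid exporter, was the larger of the 2 differences in the other direction, at 15.01, 18.7 and 19.6 CPM in WT Pam3 and 20.4, 22.7 and 23.99 in KO Pam3, without overlap (0.31 ± 0.06, 0.000957). The magnesium carrier Slc41a1 was higher in KO too, at 7.13, 8.67 and 10.3 and 10.1, 10.2 and 11.04 CPM, with overlap (0.26 ± 0.06, 0.0142).

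The other 7 passed the test in fewer of the 24 fits. Slc30a1 passed it in 22 (-0.22 ± 0.06, adjusted p = 0.0194). Slc17a5 (-0.16), Slc12a7 (-0.18), Slc7a7 (-0.17), Slc2a6 (-0.24) and Slc48a1 (-0.15) passed it in 4 to 6, and Slc6a6 (-0.23) in 1, the fit without WT Pam3 replicate 5. Slc12a7 had 80.5, 81.2 and 86.5 CPM in WT media and 77.3, 78.6 and 82.2 in KO media, and 79.3, 96.7 and 103 in WT Pam3 and 77.7, 83.3 and 92.5 in KO Pam3. For the heme carrier Slc48a1 the values were 272, 277 and 293 in WT media, 248, 259 and 275 in KO media, 316, 349 and 395 in WT Pam3 and 298, 313 and 333 in KO Pam3. Slc7a7 had 26.03, 29.1 and 30.1 CPM in WT media, 23.6, 26.6 and 26.9 in KO media, 75.6, 84.3 and 92.5 in WT Pam3 and 69.5, 73.5 and 78.3 in KO Pam3. The groups overlapped for these 3 under both treatments. Without that library 4 members were higher and 19 lower (15.8%, against 8.09% of all genes tested), the 14 calls among them, and the difference of Slc6a6 was -0.31. The differences of Slc9a9, Slc38a6, Slc43a2, Slc37a2 and Slc6a8 were then -0.31, -0.25, -0.32, -0.19 and -0.24, and those of Slc36a1 and Slc41a1 0.26 and 0.20. Slc30a1, Slc17a5, Slc12a7, Slc7a7, Slc2a6 and Slc48a1 stood at -0.27, -0.20, -0.23, -0.14, -0.18 and -0.11 without it. The count of lower members was 5 without KO Pam3 replicate 3, 6 without any 1 of KO media replicates 2 to 6, of WT Pam3 replicates 2 to 4 or of the 6 WT media libraries, and 7 without KO media replicate 1 or KO Pam3 replicate 1 or 5. It was also 5 with scaling to library size alone, without a filter on low counts, and in a fit of these 2 groups alone. Macrophage markers (8 genes) summed to between 33408.6 and 37974.5 CPM in WT Pam3 and 31509.8 and 33131.5 in KO Pam3, every KO library lying below every WT library, and overlapped in media. Most of this sum was Lyz2, with medians of 21018 CPM in WT Pam3 and 19727 in KO Pam3. Singly, Lyz2, Cd68 and Mertk lay lower in every KO Pam3 library than in any WT Pam3 library. Itgam lay higher (318.7 to 346.2 CPM against 274.7 to 317.6), and the other markers of the list overlapped after Pam3. In media Mertk lay lower in every KO library (156.8 to 160.8 CPM against 169.1 to 184.6 in WT). Fcgr1 (345.3 to 524.4 CPM against 288.0 to 326.1) and Cd14 (285.5 to 308.3 against 262.6 to 278.4) lay higher in KO media. The other macrophage markers overlapped there. Granulocyte markers (9 genes) summed to between 60.6 and 71.4 CPM in WT media and 82.4 and 95.0 in KO media, and to between 39.2 and 62.3 in WT Pam3 and 48.8 and 57.0 in KO Pam3. Stromal and endothelial markers (8 genes) summed to between 38.3 and 48.5 CPM in WT media and 51.1 and 93.7 in KO media, and to between 33.9 and 49.2 in WT Pam3 and 46.4 and 72.2 in KO Pam3. None of these markers was at 0 in all libraries, and their part in the differences of the members was not tested.

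**Figure D5:**
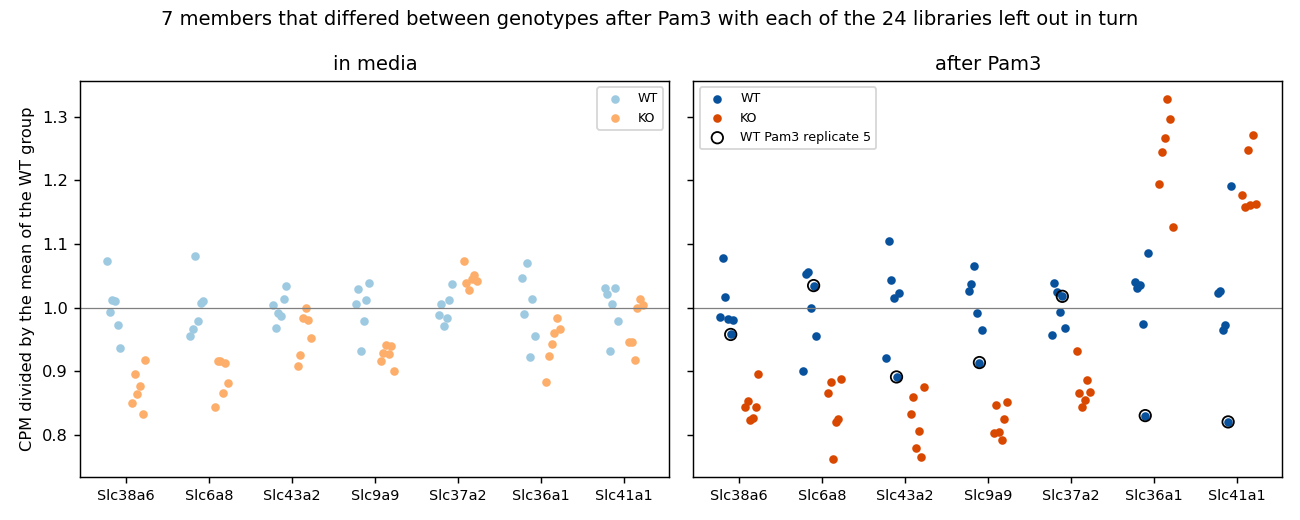
CPM of 7 members in each library, divided by the mean of the WT group under the same treatment, in media (left) and after Pam3 (right); circles mark WT Pam3 replicate 5. Slc38a6 lies lower in KO under both treatments, while Slc36a1 and Slc41a1 lie higher in KO after Pam3, with log2 differences of 0.31 and 0.26.

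The Pam3 response itself differed between genotypes for 3 members (2.05%, against 0.762% of all genes tested, 0.173% higher and 0.589% lower, and 1.16% of those with a mean count of 200 or more). Slc36a1 fell less in KO (-2.51 against -2.90, interaction 0.40 ± 0.07, adjusted p = 0.0115). Slc37a2 fell more in KO (-3.74 against -3.48, -0.26 ± 0.04, 0.00904). In media its genotypes overlapped (677, 688 and 707 CPM in KO against 639, 657 and 684 in WT, which did not pass the test), whereas after Pam3 all KO libraries were below all WT libraries. Slc2a6 rose less in KO (4.65 against 5.09, -0.43 ± 0.10, 0.0264). The first and second passed the test in all 24 fits that left out 1 library, Slc2a6 in 17. Without WT Pam3 replicate 5 the count was 5 higher and 9 lower (9.59%, against 3.73% of all genes tested), the 3 calls among them. For Slc2a6 that library had the highest value of its group, 1989 CPM, and the interaction without it was -0.37, beside 0.35 for Slc36a1 and -0.25 for Slc37a2. The smallest Slc2a6 interaction in size among the 24 fits, -0.34, came without KO media replicate 1, which stood high at 69.5 CPM. The Slc2a6 levels of the genotypes overlapped after Pam3. The lower count was 1 without KO Pam3 replicate 2 or 3, WT Pam3 replicate 4, or WT media replicates 2, 3, 4 or 5. The higher count was 2 without KO media replicate 1, 2 or 5 or WT media replicate 1, and 3 without WT Pam3 replicate 6. DESeq2 gave 4 higher.

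Carriers outside the Slc symbols are a comparison chosen by name: of 50 listed, 47 were in the files and 44 were tested. Chosen with results of these data known, the list is a description. In WT 15 rose and 22 fell with Pam3, and in KO 15 and 24, with a median log2 change of -0.29 and -0.35. Of all genes tested 40.6% rose and 44.2% fell in WT, and 40.2% and 44.8% in KO. The organic anion carriers Slco3a1 and Slco4a1 rose (log2 change 5.90 and 3.68 in WT) and Slco2b1 fell (-6.70). Flvcr2, of a family of heme and choline carriers, rose by 6.10 in WT, and Flvcr1 changed by -3.10. In media 1 of the 44 differed between genotypes, Tmem165 (-0.21), and after Pam3 3 were lower in KO, Mfsd12, Ctns and Mfsd11 (-0.24, -0.17 and -0.13). The interaction was called for Tmem165 (0.25). Of all genes tested 3.03% were called between genotypes in media, 4.06% after Pam3 (2.75% lower in KO) and 0.762% for the interaction. Of the 8 Slc genes left out by name 7 rose and Slc40a1 fell in both genotypes. Of the Slc genes under the count minimum 60 were tested, of which 15 rose and 35 fell in WT, and 20 and 34 in KO. Together these were 83.3% in WT and 90% in KO, beside 84.8% and 85.0% of all genes tested.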

How the data were processed

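Per the labels' protocols, polyA RNA was made into libraries with a kit that does not mark strand and sequenced as single-end reads of 50 bases. GSNAP and the build GRCm38 are named, without versions, in the submitters' processing notes. Per the file headers, the deposited counts are reads aligned uniquely to each gene model, and the RPKM values are adjusted by a size factor. RPKM served only for levels between genes, and counts for everything else. GENCODE M21 gave symbols for 52489 of 52636 gene models, and the other 147 held 0.00387% of the reads.

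Counts were tested with edgeR 4.0.16 in R 4.3.3 (quasi-likelihood F-test, TMM, filterByExpr, 1 fit of 24 libraries with a mean per group, 5 comparisons). The filter left 14435 genes, all 146 members among them, and adjusted p-values (Benjamini-Hochberg, threshold 0.05) cover all of them. Standard errors are log2 fold changes over the root of F, and the common coefficient of variation was 8.21%. Replicate numbers follow the order of deposition.

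Members, substrate classes and lists were chosen with earlier results of these data known. Members with CPM values in every group are, per comparison and class, the 3 largest rises and falls that passed the test with separate groups (at most 30), every member called between genotypes or for the interaction (at most 12 a direction), and the member of highest RPKM per class. Genes beside the count minimum are given by their mean count. Other members are named to account for their class. Values of a few single genes are not reported here. Alternatives were RLE factors, library size alone, DESeq2 1.42.0, no filter on low counts, only the groups compared, and leaving out each library. The lowest count of a member in a library was 30.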

Additional observations from a re-analysis of the deposited data

Results flagged for a closer look

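In 188 group values of 47 named members, 19 single libraries lay far from the other 5 of their group by a gap test that flags about 1 in 20 groups by chance. Of these, 10 were in WT Pam3 replicate 5. It was low for Slc16a10 (638 CPM), Slc17a5 (23.9 CPM), Slc23a2 (255 CPM), Slc29a3 (16.2 CPM), Slc44a1 (382 CPM), Slc4a7 (95.9 CPM), Slc6a6 (1032 CPM) and Slc7a1 (37.3 CPM), and high for Slc25a3 (362 CPM) and Slc31a2 (557 CPM). KO media replicate 1 was high for Slc15a3 (279 CPM), Slc25a22 (42.6 CPM), Slc2a6 (69.5 CPM) and Slc30a1 (84.4 CPM). With Pam3 the first 3 rose and Slc30a1 fell, where 92.5% of all members were called in WT and 93.2% in KO. KO Pam3 replicate 6 was low for Slc7a1 (55.8 CPM) and high for Slc8b1 (125 CPM). Single further values were Slc12a7 in WT media replicate 3 (86.5 CPM), Slc35d1 in KO Pam3 replicate 5 (19.6 CPM) and Slc9a3r1 in KO media replicate 6 (173 CPM).

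The Pam3 response differed between the genotypes by the test of the interaction in edgeR for Slc36a1 (0.40 higher in KO on the log2 scale), Slc37a2 (-0.26) and Slc2a6 (-0.43).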

How the results depend on the processing

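Numbers of members called with Pam3 varied little when single libraries were left out, from 62 to 65 higher and 70 to 72 lower in WT and from 66 to 69 and 67 to 69 in KO. With scaling to library size alone they were 38 higher in WT and 42 in KO, and that scaling shifts the median of all genes, and the phosphate carrier Slc25a3 then turned to -0.18 in WT and -0.25 in KO. Between genotypes in media, leaving out single libraries gave 0 to 4 higher and 1 to 19 lower. DESeq2 gave 1 higher there, a fit without a filter on low counts 1 lower, and a fit of the 2 groups alone 4 higher and 19 lower. After Pam3, leaving out single libraries gave 2 to 4 higher and 5 to 19 lower. Scaling to library size alone gave 5 higher and 5 lower, no filter 5 lower, and the 2 groups alone 1 higher and 5 lower. The interaction gave 1 to 5 higher and 1 to 9 lower without single libraries, 2 higher with library size alone, 4 higher with DESeq2 and 1 lower without a filter. The largest counts in these ranges come from the fit without WT Pam3 replicate 5. Apart from the alternatives above, the cause of these moves was not tested. Of the members named for the genotype, 8 of 14 after Pam3, 3 of 4 in media and 2 of 3 of the interaction missed the threshold in at least 1 alternative while keeping their direction. Of the 36 named for Pam3 in WT, 1 did, the ascorbate carrier Slc23a2 with library size alone. No paired analysis was possible because the labels give no replicate numbers, and those used here mark no shared animal or culture. Depth (31302011 to 40663152 counted reads per library) gave every member at least 30 reads in every library.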

Other observations

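Some members have chromosomal neighbours that are members too, and these pairs did not always move together with Pam3. The copper carriers Slc31a2 and Slc31a1 on chromosome 4 lie 62316 bases apart and changed by 2.81 and 2.44 on the log2 scale in WT. The glutamine carriers Slc38a1 and Slc38a2 on chromosome 15 lie 44479 bases apart and changed by 0.16 and 0.33. Slc35b2 and the nucleoside carrier Slc29a1 on chromosome 17 lie 17529 bases apart and changed by -0.18 and 0.40. Slc25a15 and the phosphate carrier Slc20a2 on chromosome 8 lie 78191 bases apart and changed by 0.10, which did not pass the test, and by -0.35.

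The share of reads held by the 146 members was 1.66% ± 0.0155 (SD, n = 6) in WT media, 1.62% ± 0.0239 in KO media, 1.58% ± 0.0319 in WT Pam3 and 1.56% ± 0.0132 in KO Pam3, while the summed level of single classes lay higher or lower with Pam3. These shares are of counted reads without TMM. On the TMM scale the members' summed CPM went the other way. It lay between 13719 and 14219 in WT media and between 18530 and 19796 in WT Pam3. In KO it lay between 13447.5 and 13674 in media and between 17835 and 18578 after Pam3.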
